A study of Mus musculus with 48 samples.

Results

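The 37 genes described here mark blood cells other than natural killer (NK) cells, and were read in RNA-seq libraries of NK cells sorted from mouse spleens. They are 10 B cell genes, 8 T cell genes, 8 neutrophil genes, 8 genes of monocytes and macrophages (called myeloid here) and 3 genes of MHC class II. They were taken by symbol, not by their values, and all 37 were found among the 24328 symbols of the tables. The questions were which fractions and genotypes carried reads of these genes, and which T cell genes kept a level in NK cells when the others were gone.

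NK cells are innate lymphocytes that share an origin and much of their signalling machinery with T cells. B cells are recognised by the Cd79a and Cd79b chains of their antigen receptor, T cells by the Cd3d, Cd3e and Cd3g chains that pair with the T cell receptor, neutrophils by granule proteins such as lactoferrin (Ltf), and macrophages by lysozyme (Lyz2) and the complement protein C1q. MHC class II presents antigen on B cells, dendritic cells and macrophages. A sorted population can hold transcripts of such genes because the sorted cells make them or because other cells came along.

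The 48 libraries fall into 14 groups. In 1 experiment, animals labelled cKO (Bach2flox/flox with Ncr1Cre) and cWT (Ncr1Cre alone) each gave 3 libraries of every one of 4 fractions (NK, iNK, mNK1 and mNK2). Ncr1 is expressed by NK cells, so this Cre is aimed at NK cells, and both genotypes carry it. The chimera experiment gave 4 KO and 4 WT libraries of unfractionated NK cells from hosts that had received marrow of both kinds mixed about 1:1, where the KO marrow, and so each blood cell grown from it, carries the deletion. Unmodified WT animals gave 4 libraries each of iNK, of mNK1, and of mNK2 split into KLRG1-positive and KLRG1-negative cells, KLRG1 being a receptor of mature NK cells. In common usage iNK are immature and mNK mature NK cells. The labels give no treatment, and neither age, strain nor the markers of the gates are given. Replicates are not said to come from different animals, and a p-value here speaks only of the spread among samples, which may be technical.

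Libraries held 13650636 to 21029172 counts (conditional), 8973777 to 11924274 (WT subsets) and 8557018 to 12927472 (chimeras). Levels are counts scaled to a library total of 1000000 (CPM), and a count of 3, used as the floor, stood for 0.143 to 0.220, 0.252 to 0.334 and 0.232 to 0.351 CPM in that order. Such floors cover counting error only. Ribosomal RNA (Rn45s) made up 0.0890% to 0.360% of conditional libraries, 18.6% to 29.1% of WT subset libraries and 20.04% to 25.8% of chimera libraries. No group is common to the 3 experiments, so levels are compared within an experiment and only set side by side across them. Counts are not adjusted for transcript length, so each gene is compared with itself across groups.

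The NK receptor gene Klrb1c stood between 1178 and 5565 CPM in all 48 libraries. The 6 NK genes examined, Klrb1c among them, had their lowest sum in iNK. It was 6787 ± 955 CPM in cKO iNK and 8241 ± 1223 CPM in cWT iNK, against 19460 ± 1356 and 18428 ± 1407 CPM in mNK2 (SD, n = 3). In the WT subsets it was 7425 ± 299 CPM in iNK, and in mNK2 13171 ± 511 CPM without and 13324 ± 285 CPM with KLRG1 (SD, n = 4). Bach2 had 1.36, 2.80, 2.57 and 1.300 CPM in chimera KO libraries, against 14.03, 13.6, 19.4 and 17.2 CPM in chimera WT libraries, a log2 fold change of -2.89 ± 0.27 (SE, edgeR adjusted p = 2.74e-07). In the conditional experiment Bach2 was not lower: it averaged 21.9 ± 1.91 CPM in libraries labelled cKO and 14.7 ± 4.95 CPM in libraries labelled cWT of the NK fraction (SD, n = 3), and its mean was also higher in the iNK, mNK1 and mNK2 libraries labelled cKO (edgeR adjusted p = 0.375 in NK, 0.552 in iNK, 0.0776 in mNK1 and 0.442 in mNK2). Ncr1 had 1682, 1646 and 1604 CPM in NK libraries labelled cKO, against 234, 211 and 886 CPM in those labelled cWT, where the third library stood apart, as it did in the other 3 cWT fractions (edgeR adjusted p for Ncr1 = 0.417 in NK). Where a direction is given below, cKO and cWT mean the libraries so labelled.

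The summed levels of the T cell list set the fractions apart. The 8 T cell genes summed to 1684 ± 260 CPM in iNK, 73.0 ± 7.32 CPM in mNK1 and 6.53 ± 2.08 CPM in mNK2 libraries labelled cKO, and to 1801 ± 308, 65.4 ± 11.1 and 8.36 ± 4.41 CPM in the same fractions labelled cWT (SD, n = 3). The same order was seen in the WT subsets, at 818 ± 97.9 CPM in iNK, 64.1 ± 12.5 CPM in mNK1, and in mNK2 at 8.27 ± 3.37 CPM (KLRG1-negative) and 5.75 ± 1.07 CPM (KLRG1-positive) (SD, n = 4). B cell and MHC class II genes were also at their highest in iNK. Neutrophil granule genes were near 0 in iNK. In the conditional experiment the myeloid genes split into a group that peaked in mNK1 and a group that did not. In the WT subsets all 7 myeloid genes tested had positive fold changes in mNK1 against iNK. In bulk libraries, fewer cells of a type and less RNA per cell cannot be told apart, and this holds for every result below.

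**Figure D1:**
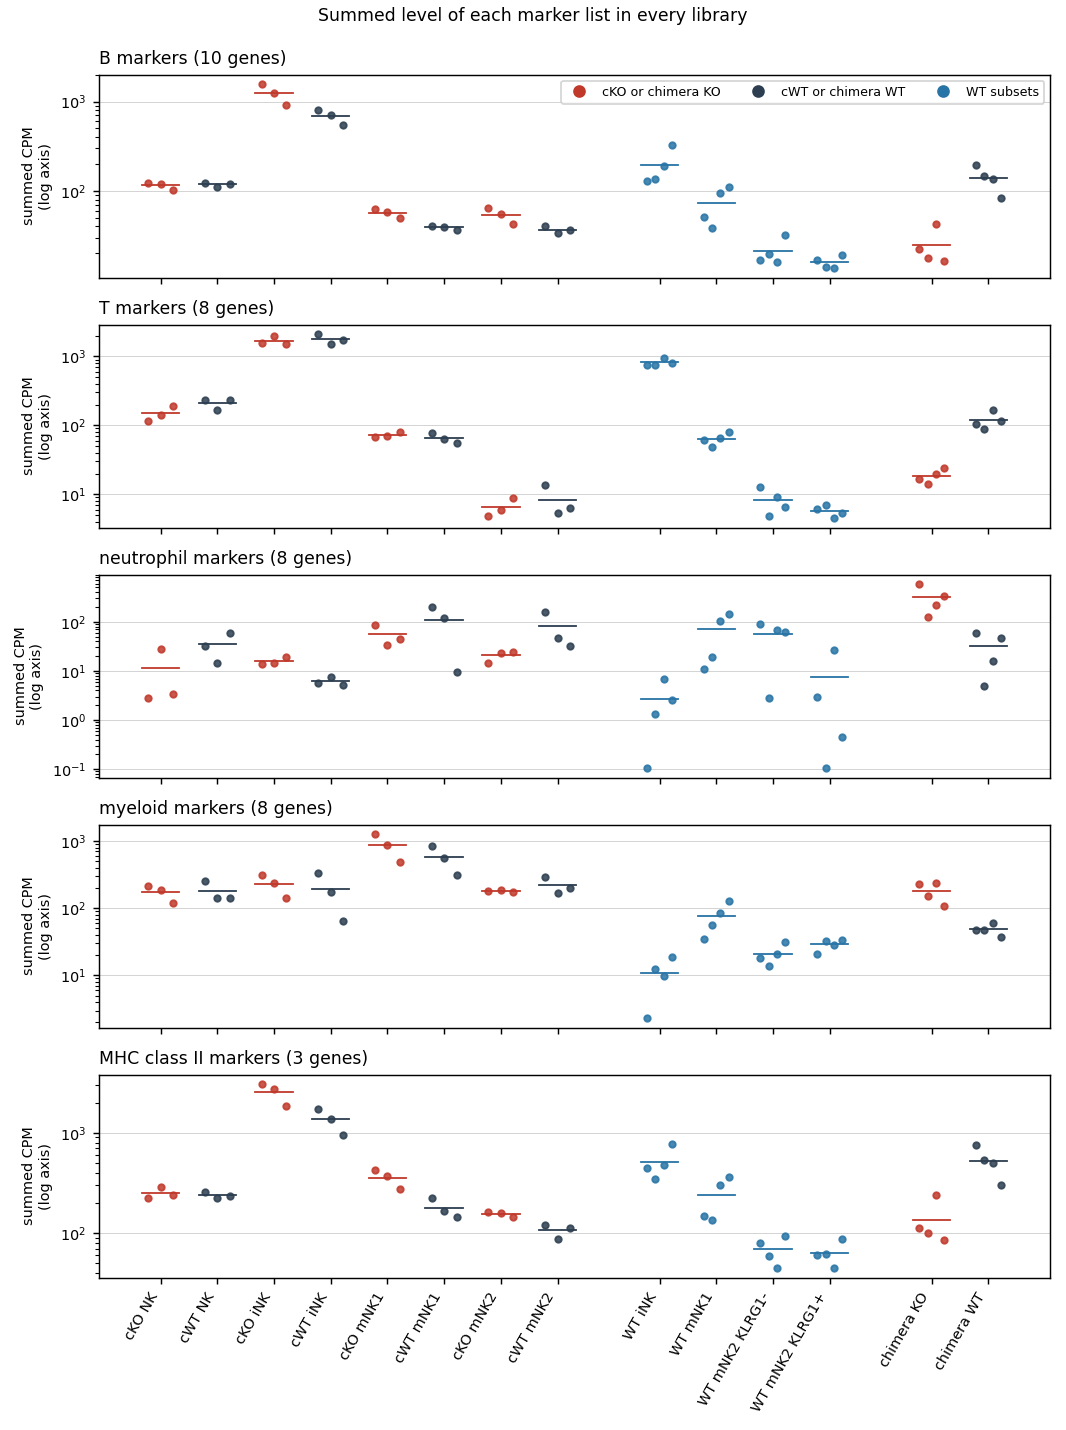
Summed CPM (log axis) of the B (10 genes), T (8), neutrophil (8), myeloid (8) and MHC class II (3) lists in each of the 48 libraries. Points are libraries and lines are group means, the conditional groups stand left, the WT subsets in the middle and the chimeras right. The T list lies at 747 CPM or more in the iNK libraries and at 13.4 CPM or less in the mNK2 libraries, and the neutrophil list is higher in all 4 chimera KO than in all 4 chimera WT libraries.

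T cell genes come first, since NK cells could make some of them. The Cd3d, Cd3e and Cd3g chains carry signals from the T cell receptor. Cd3d and Cd3g start 1355 bases apart on chromosome 9, and Cd3e starts 27825 bases from Cd3d. The stretches from 250 bases before to 50 bases after their RefSeq starts are shown because these 3 neighbours behaved differently in the late stages. They are read from GRCm38.p6, a later build than the mm9 to which the reads were aligned, on the strand of the gene, and capitals mark the E-box CAGGTG or its other strand CACCTG.
Cd3d, chr9:44981536-44981835, plus strand: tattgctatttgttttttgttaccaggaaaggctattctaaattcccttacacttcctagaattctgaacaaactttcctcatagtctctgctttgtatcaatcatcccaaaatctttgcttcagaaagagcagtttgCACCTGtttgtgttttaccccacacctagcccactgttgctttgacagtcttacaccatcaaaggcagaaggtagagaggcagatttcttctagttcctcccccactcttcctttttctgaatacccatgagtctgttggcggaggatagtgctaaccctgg
Cd3g, chr9:44980382-44980681, minus strand: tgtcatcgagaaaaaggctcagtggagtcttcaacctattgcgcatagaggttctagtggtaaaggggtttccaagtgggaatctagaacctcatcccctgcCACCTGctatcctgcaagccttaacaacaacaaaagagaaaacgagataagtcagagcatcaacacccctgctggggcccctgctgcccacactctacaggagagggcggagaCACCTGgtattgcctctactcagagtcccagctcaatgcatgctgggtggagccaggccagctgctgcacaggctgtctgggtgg
Cd3e, chr9:45009562-45009861, minus strand: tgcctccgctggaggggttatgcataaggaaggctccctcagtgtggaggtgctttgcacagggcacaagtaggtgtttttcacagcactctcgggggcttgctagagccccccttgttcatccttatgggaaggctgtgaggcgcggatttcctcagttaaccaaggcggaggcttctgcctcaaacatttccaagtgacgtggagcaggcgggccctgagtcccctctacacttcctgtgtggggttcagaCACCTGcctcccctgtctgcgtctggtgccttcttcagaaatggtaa
The E-box was found once in the Cd3d window, at 2 places in the Cd3g window and once in the Cd3e window. It stands in 11 of the 25 member genes with a promoter entry, and in 20.2% of all 32851 promoters of 300 bases, which makes it common, and a match is a description of letters only.

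In the WT subsets Cd3e had 155, 99.1, 124 and 103 CPM in iNK and 3.17, 2.57, 3.93 and 4.85 CPM in mNK1. In mNK2 it was at 0.484, 0, 0.295 and 0.1002 CPM where KLRG1 was negative, and at 0.0849, 0, 0.0896 and 0 CPM where it was positive. The iNK, mNK1 and mNK2 libraries did not overlap, and the KLRG1-positive group held 2 Cd3e counts in all 4 libraries. Cd3g had 216, 249, 336 and 274 CPM in iNK, 28.5, 17.9, 26.8 and 27.6 CPM in mNK1, then 4.26, 3.61, 5.30 and 4.31 CPM in mNK2 without KLRG1 and 4.25, 2.36, 2.42 and 3.45 CPM in mNK2 with KLRG1. Cd3g thus stayed above the floor in all 8 mNK2 libraries, where Cd3e did so in 1. Cd3d also stayed above the floor in all 8, at 5.03, 0.922, 3.44 and 1.503 CPM without KLRG1 and 1.53, 3.43, 1.97 and 1.34 CPM with KLRG1.

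All 3 CD3 genes fell at both steps. In mNK1 against iNK the log2 fold change was -5.02 ± 0.26 for Cd3e, -3.88 ± 0.24 for Cd3d and -3.38 ± 0.16 for Cd3g (SE, edgeR adjusted p = 1.12e-12, 2.64e-10 and 2.66e-13). In KLRG1-negative mNK2 against mNK1 it was -4.03 ± 0.44 for Cd3e, -3.15 ± 0.30 for Cd3d and -2.54 ± 0.18 for Cd3g (SE, edgeR adjusted p = 5.88e-07, 1.66e-07 and 8.83e-10). The proportions of the 3 genes therefore shifted. There were 299 Cd3d counts per 100 Cd3e counts in WT iNK libraries (203 to 348 over the 4 libraries) and 653 in mNK1 (530 to 800), ranges that did not overlap. Cd3g gave 225 per 100 Cd3e counts in WT iNK (139 to 271) and 692 in mNK1 (570 to 900). In KLRG1-negative mNK2 the ratios were 1256 for Cd3d and 2044 for Cd3g, on 9 Cd3e counts in the whole group.

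Cd5 and Cd6, 2 related surface receptors of T cells, did not stay. Cd5 had 23.9, 27.2, 18.6 and 41.7 CPM in WT iNK and 3.94, 2.08, 5.06 and 7.53 CPM in WT mNK1, and it had no count in any of the 8 WT mNK2 libraries. Cd6 had 35.8 ± 9.41 CPM in WT iNK, 3.03 ± 2.97 CPM in mNK1, and in mNK2 0.171 ± 0.289 CPM without and 0.0425 ± 0.0849 CPM with KLRG1 (SD, n = 4), the last on 2 counts. Against Cd3e, however, Cd5 was more frequent in mNK1, at 128 per 100 Cd3e counts (80.8 to 155), than in iNK, at 23.02 (14.97 to 40.4). Cd4, a coreceptor of T cells that some myeloid cells also express, did not follow the CD3 genes at the first WT step. It had 2.64 ± 1.28 CPM in WT mNK1 and 1.73 ± 1.45 CPM in WT iNK (SD, n = 4), and 72.9 counts stood per 100 Cd3e counts in mNK1, against 1.41 in iNK. Cd8a and Cd8b1, the chains of the CD8 coreceptor, lay at 3.37 ± 1.35 and 2.48 ± 2.56 CPM in WT iNK. In WT mNK2 without and with KLRG1, Cd8b1 had 19 and 13 counts, Cd8a 0 and 5 and Cd4 14 and 0, each mostly from 1 library, beside 9 and 2 counts of Cd3e.

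The conditional experiment gave the same fall with stage and other proportions. Cd3e had 558, 524 and 523 CPM in cKO iNK, against 491, 466 and 475 CPM in cWT iNK. It had 13.2, 16.6 and 12.2 CPM in cKO mNK1, against 9.75, 7.20 and 9.17 CPM in cWT mNK1, and 1.71, 0.713 and 1.68 CPM in cKO mNK2, against 3.23, 0.941 and 0.213 CPM in cWT mNK2. The labelled cKO libraries were the higher in iNK and mNK1 without overlap, but by less than the test could call (edgeR adjusted p = 0.917 and 0.559). There were 71.0 Cd3d counts per 100 Cd3e counts in cKO iNK, against 104 in cWT iNK, 135 in cKO mNK1, against 243 in cWT mNK1, and 112 in cKO mNK2, against 109 in cWT mNK2. The shift towards Cd3d in mNK1 was thus seen here too. The iNK and mNK1 library ranges overlapped in cKO (57.7 to 98.8 and 96.2 to 199) but not in cWT (81.3 to 134 and 172 to 284). In mNK2 the ratio was lower again, on 58 Cd3e counts in cKO and 69 in cWT. Each library range overlapped between the genotypes. Cd3g per 100 Cd3e counts was 113, 214 and 216 in cKO iNK, mNK1 and mNK2, and 148, 320 and 316 in cWT. Cd3d per 100 Cd3e was higher in the WT subsets and chimeras, at 531 in chimera KO and 438 in chimera WT libraries, than in any conditional group, and library preparation, experiment and cells cannot be told apart in that difference.

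**Figure D2:**
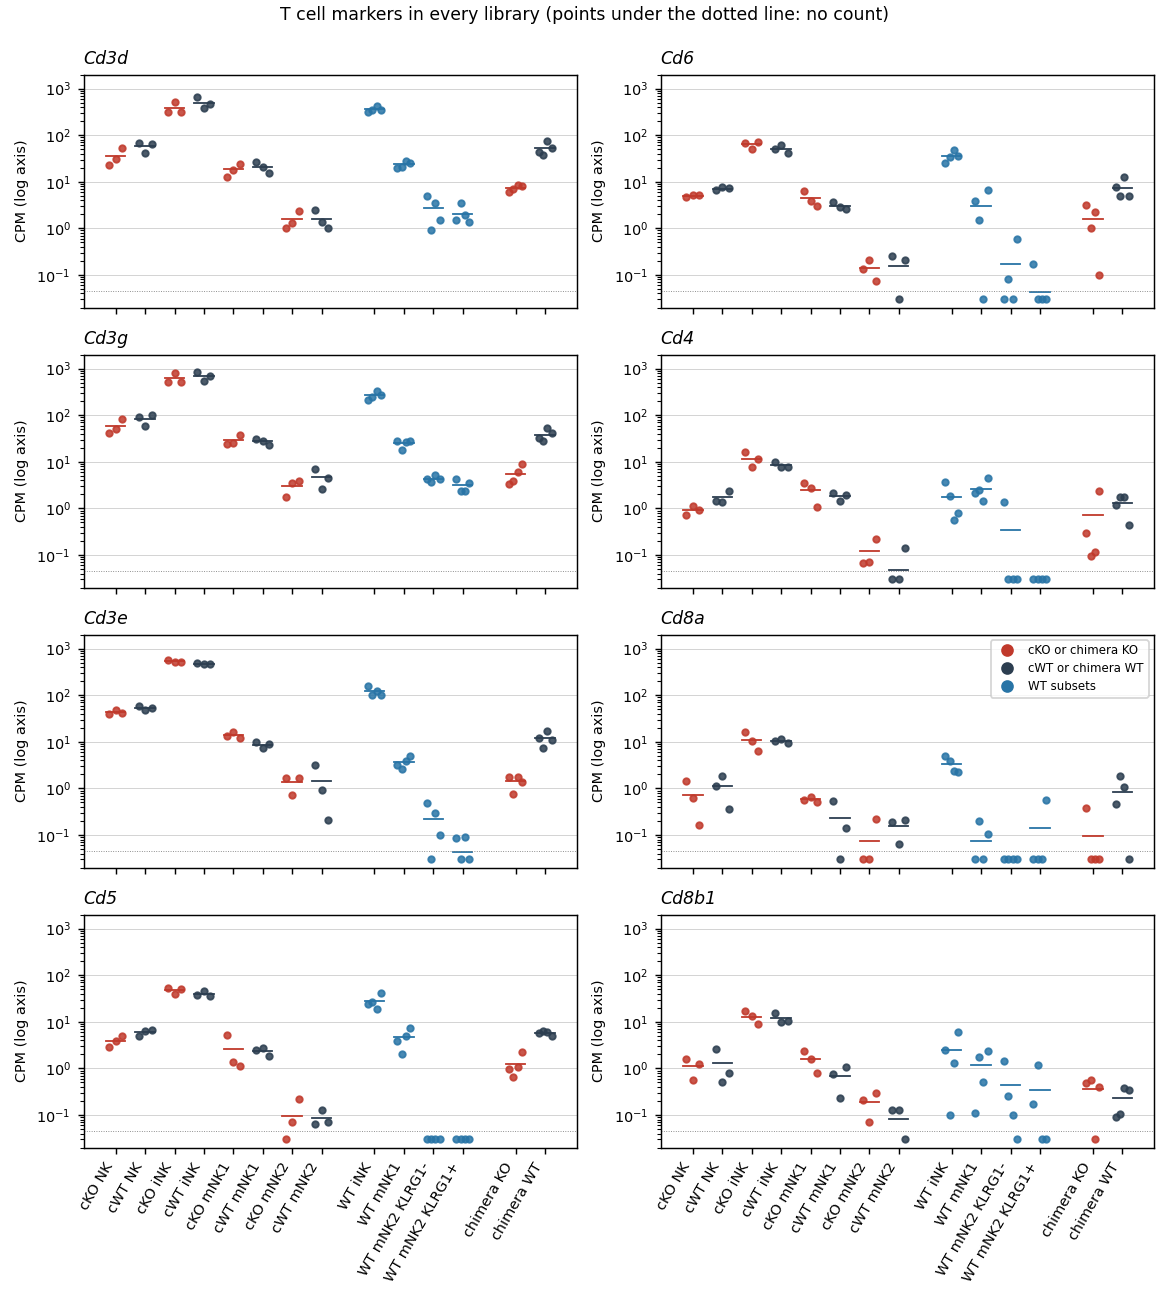
CPM (log axis) of the 8 T cell genes in every library, with libraries that had no count drawn under the dotted line and lines at group means. Cd3d and Cd3g keep points at 0.922 CPM or more in the WT mNK2 libraries, where Cd3e and Cd6 are near the floor and Cd5 has no count.

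Over both steps, 8 of 8 T cell genes fell in cWT mNK1 against cWT iNK, 8 of 8 in cKO mNK1 against cKO iNK and 6 of 8 in WT mNK1 against WT iNK (Cd4 and Cd8b1 did not pass), all by the edgeR test. All 37 marker genes together had 31 calls (9 higher, 22 lower) in the cWT step, where 18.5% of all genes tested were called (10.2% higher, 8.29% lower). They had 30 (8 higher, 22 lower) in the cKO step, where 22.7% were (11.3% higher, 11.4% lower), and 17 of 35 tested (8 higher, 9 lower) in the WT step, where 10.5% were (6.39% higher, 4.14% lower). At the next step 7 of 8 T cell genes fell in cWT mNK2 and 7 in cKO mNK2, against mNK1 (not Cd8a), and 5 in WT KLRG1-negative mNK2 (Cd3d, Cd3e, Cd3g, Cd5 and Cd6). The calls over all marker genes were 17 in cWT (2 higher, 15 lower), where 20.2% of all genes were called (7.7% higher, 12.5% lower). They came to 9 without cWT mNK1 library 1 or cWT mNK2 library 2, to 10 without cWT mNK2 library 3 and to 11 without cWT mNK1 library 2. In cKO there were 20, all lower, where 21.3% were called (7.09% higher, 14.3% lower), and in WT 16 of 35, all lower, where 7.29% were (2.18% higher, 5.11% lower). KLRG1-positive against KLRG1-negative mNK2 gave 0 calls of 35 by edgeR, where 1.36% of all genes were called, with 8 genes at an unadjusted p under 0.05 and 0 by DESeq2.

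Other T cell genes were counted from a further list of 12. Of these, 10 fell in cWT mNK1 against cWT iNK and 7 in cWT mNK2 against cWT mNK1. Lck, the kinase that starts T cell receptor signalling, was not among them: it averaged 1973 ± 244, 1745 ± 171 and 1748 ± 218 CPM in cWT iNK, mNK1 and mNK2 (SD, n = 3), with a log2 fold change of -0.05 ± 0.12 in mNK1 against iNK (edgeR adjusted p = 0.8293). In the WT subsets Lck had 1592 ± 154, 1760 ± 92.3, 1554 ± 150 and 1356 ± 41.8 CPM in iNK, in mNK1 and in mNK2 without and with KLRG1 (SD, n = 4). Zap70, the kinase next in that pathway and one that NK cells also use, lay at 349 ± 13.6, 324 ± 23.8, 290 ± 19.2 and 226 ± 15.4 CPM in the same 4 groups. Zap70 was called lower in KLRG1-positive against KLRG1-negative mNK2 (-0.35 ± 0.07, log2, SE, edgeR adjusted p = 0.0118). It was also called lower in cKO mNK1 against cKO iNK (-0.39 ± 0.10, adjusted p = 0.00722), and in no other stage comparison. These kinases were thus present in each fraction, including those where Cd3e, Cd5 and Cd6 had few or no counts. Of the non-member genes with at least 5 CPM, those with the profile nearest to Cd3e over the 8 conditional groups were Gpr15, Cxcr6, Il7r, Sit1 and Nsg2, with root mean square differences of 0.322, 0.406, 0.509, 0.580 and 0.636 (log2). Cd3g and Cd3d stood at 0.455 and 0.472 from Cd3e on the same measure, Cd6 at 0.766, Cd5 at 0.792 and Cd4 at 1.67.

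B cell genes had their highest levels in iNK. The list summed to 1245 ± 333 CPM in iNK, 56.7 ± 6.31 CPM in mNK1 and 53.9 ± 10.4 CPM in mNK2 libraries labelled cKO, and to 682 ± 130, 39.3 ± 2.08 and 36.8 ± 3.48 CPM in those labelled cWT (SD, n = 3). In the WT subsets it was 194 ± 90.2, 73.8 ± 34.7, 21.1 ± 7.53 and 15.98 ± 2.66 CPM in iNK, in mNK1 and in mNK2 without and with KLRG1 (SD, n = 4). All 10 B cell genes fell in mNK1 against iNK in both conditional genotypes, Cd79a by a log2 fold change of -4.53 ± 0.32 in cKO and -4.39 ± 0.32 in cWT (SE, edgeR adjusted p = 8.70e-09 and 1.84e-08). In the WT subsets 2 of 9 tested did (Cd79a, -1.33 ± 0.39, and Cd22, -2.61 ± 0.46; adjusted p = 0.0279 and 0.00101). Unlike the T cell genes, the B cell genes did not fall again as a group between mNK1 and mNK2 of the conditional experiment, where 1 of 10 fell in cKO and 1 in cWT. At that step in the WT subsets, 4 of 9 tested fell (Cd79a, Cd79b, Cd22 and Cr2) and none rose. The gene that fell in the conditional experiment was Cd22 in both genotypes, and Blk rose in cWT (1.39 ± 0.43, log2, SE, edgeR adjusted p = 0.0219), as did Ebf1, which had 1 count in cWT mNK1.

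Cd22, an inhibitory receptor of B cells, varied widely in its proportion to Cd79a. Its RefSeq promoter is shown for that reason, from GRCm38.p6 on the strand of the gene, with the motif of the EBF family of B cell factors, the letters TCCC and GGGA with any 2 bases between them, in capitals.
Cd22, chr7:30878979-30879278, minus strand: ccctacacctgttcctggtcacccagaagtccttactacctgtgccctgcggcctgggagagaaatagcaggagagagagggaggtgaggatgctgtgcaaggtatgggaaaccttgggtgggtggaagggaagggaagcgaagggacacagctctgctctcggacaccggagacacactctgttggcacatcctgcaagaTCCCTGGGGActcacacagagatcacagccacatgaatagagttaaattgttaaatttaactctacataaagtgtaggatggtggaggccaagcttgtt
The motif, which reads the same on both strands, was found in 1 of the 25 members with a promoter entry and in 0.904% of all 32851 promoters. The E-box CACCTG also stands in this window, left in lower case. There were 271 Cd22 counts per 100 Cd79a counts in WT iNK (156 to 684 over 4 libraries), 111 in WT mNK1, and 88.4 and 53.6 in mNK2 without and with KLRG1. In the conditional experiment the ratio was 18.8 in cKO iNK, against 20.98 in cWT iNK, 37.7 in cKO mNK1, against 50.8 in cWT mNK1, and 13.1 in cKO mNK2, against 18.7 in cWT mNK2. For Ms4a1, which encodes CD20, the summed counts of the 14 groups gave between 27.6 and 77.6 per 100 Cd79a counts, but single libraries ran from 1.96 in KLRG1-positive mNK2 to 164 in chimera KO. Over the 8 conditional groups the profile of Fcmr, the IgM receptor, was nearest to Cd79a among the B cell members (0.184), with Ebf1 at 0.527, Cd22 at 0.551 and Pax5, a B cell transcription factor with few counts outside iNK, at 0.982. Among the nearest non-members were the B cell genes Fcer2a (0.160), Siglecg (0.166) and Ly6d (0.187) and the class II chaperone H2-DMb2 (0.228).

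The MHC class II genes H2-Aa and H2-Ab1, the chains of the I-A molecule, and Cd74, its invariant chain, ran near the B cell genes. They summed to 2553 ± 623, 357 ± 77.1 and 157 ± 9.64 CPM in cKO iNK, mNK1 and mNK2, and to 1359 ± 391, 177 ± 40.1 and 107 ± 17.03 CPM in cWT (SD, n = 3). All 3 fell in mNK1 against iNK in both genotypes, by log2 fold changes from -2.97 to -2.42 in cKO and from -3.02 to -2.56 in cWT. They fell again in mNK2 against mNK1 in cKO, while none of the 3 passed in cWT. In the WT subsets they summed to 511 ± 181, 238 ± 115, 69.4 ± 21.8 and 63.9 ± 18.1 CPM (SD, n = 4) in stage order. H2-Ab1 fell in WT mNK1 against iNK, and all 3 fell in KLRG1-negative mNK2 against mNK1, H2-Ab1 by -1.82 ± 0.35 (SE, edgeR adjusted p = 0.00242).

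In the conditional experiment the myeloid genes did not move as 1 list. Lyz2 was low in iNK and highest in mNK1. It had 9.39, 11.4 and 15.8 CPM in cKO iNK, against 10.4, 9.80 and 11.4 CPM in cWT iNK, and 970, 703 and 379 CPM in cKO mNK1, against 660, 448 and 225 CPM in cWT mNK1. In mNK2 it had 158, 162 and 151 CPM in cKO, against 266, 148 and 180 CPM in cWT. It rose in mNK1 against iNK by 5.94 ± 0.48 in cKO, 5.54 ± 0.48 in cWT and 4.79 ± 0.53 in the WT subsets (log2, SE, edgeR adjusted p = 6.26e-08, 1.65e-07 and 7.86e-07). C5ar1, the receptor of a complement fragment found on neutrophils and macrophages, rose with it in both conditional genotypes, by 1.69 ± 0.27 in cKO and 2.13 ± 0.28 in cWT.

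The genes of tissue macrophages had another profile in the conditional experiment. C1qb had 59.2, 47.5 and 21.7 CPM in cKO iNK, against 73.8, 30.1 and 9.54 CPM in cWT iNK, 49.95, 18.6 and 12.2 CPM in cKO mNK1, against 30.1, 13.7 and 7.63 CPM in cWT mNK1, and 1.65, 2.07 and 1.68 CPM in cKO mNK2, against 1.33, 1.94 and 1.28 CPM in cWT mNK2. C1qa, C1qb, C1qc, Vcam1 (an adhesion molecule of splenic macrophages) and Csf1r (the receptor of macrophage growth factor) did not differ by the test between mNK1 and iNK in either conditional genotype. All 5 fell in mNK2 against mNK1 in both, C1qb by -3.76 ± 0.98 in cKO and -3.40 ± 1.00 in cWT (log2, SE, edgeR adjusted p = 0.0104 and 0.0221). There were 334 C1qb counts per 100 Lyz2 counts in cKO iNK, against 338 in cWT iNK, 3.91 in cKO mNK1, against 3.81 in cWT mNK1, and 1.15 in cKO mNK2, against 0.770 in cWT mNK2. The proportion of the 2 genes changed with the fraction, while the library ranges of the genotypes overlapped in each. In the WT subsets C1qb rose in mNK1, where it had 0.984, 6.13, 8.06 and 15.1 CPM, against 8 counts in all 4 iNK libraries. There all 7 myeloid genes tested, Lyz2 among them, had positive log2 fold changes at this step, and 4 were called. Among non-members the profile nearest to Lyz2 was that of Chil3, a chitinase-like protein of myeloid cells (0.370), followed by Gzma, the granzyme A of NK cells (1.22), Serpinb9b (1.23), the chemokine gene Ccl4 (1.25) and Serpinb1b (1.29). The nearest of the 7 other myeloid members stood at 1.95.

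**Figure D3:**
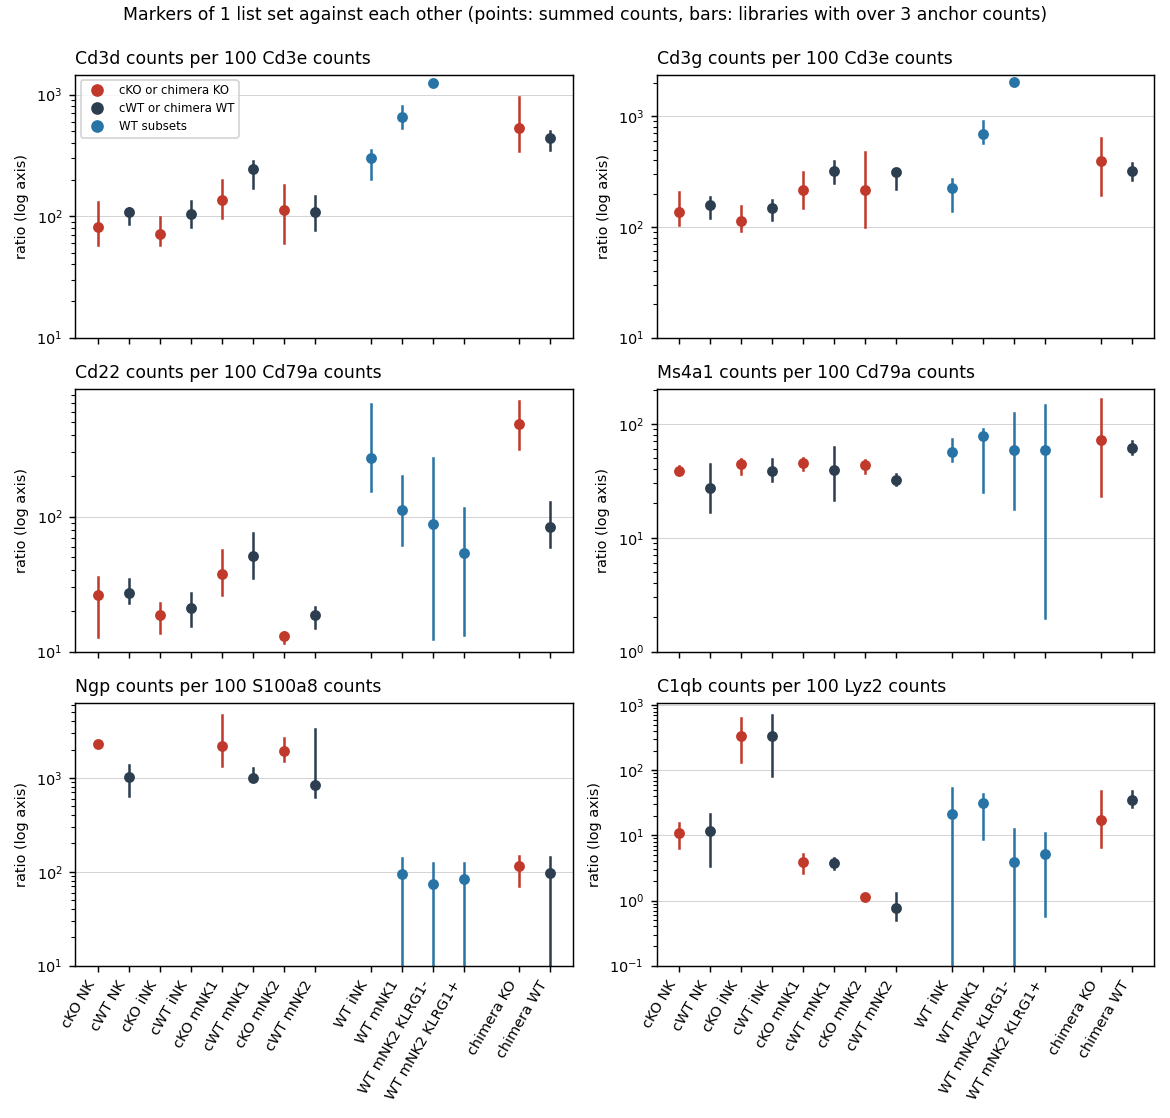
Counts of 1 marker per 100 counts of another marker of the same list (log axes) in each group. Points are ratios of summed counts, and bars span the libraries with more than 3 counts of the second gene, reaching the bottom of a panel where a library had no count of the first. Ms4a1 per 100 Cd79a lies between 27.6 and 77.6 by summed counts, while C1qb per 100 Lyz2 ranges from 0.770 to 338.

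Neutrophil granule genes were nearly absent from iNK. Ngp, a granule protein made early in neutrophil maturation, had 6 counts in the 6 conditional iNK libraries and none in the 4 WT iNK libraries. S100a8, a subunit of calprotectin, had 3 counts in the cKO iNK group and none in cWT iNK. In mNK1 Ngp had 48.9, 16.8 and 23.3 CPM in cKO, against 100, 63.7 and 5.32 CPM in cWT, and in mNK2 it had 9.05, 12.9 and 13.6 CPM in cKO, against 83.0, 27.4 and 19.05 CPM in cWT. Of the 8 neutrophil genes 7 rose in cWT mNK1 against cWT iNK, with a group at or under the floor and hence no fold. At the same step 5 of 8 rose and 2 were not called in cKO, and 4 rose and 4 were not called in the WT subsets. WT mNK1 libraries had 0, 6.13, 15.3 and 40.9 CPM of Ngp, KLRG1-negative mNK2 had 12.3, 0, 15.3 and 10.8 CPM, and KLRG1-positive mNK2 had 0, 0, 5.28 and 0 CPM. Libraries of 1 group thus ranged from no count to over 10 CPM in WT mNK1 and KLRG1-negative mNK2.

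Mmp9, a gelatinase stored in neutrophil granules, went the other way. It had 13.7, 14.6 and 18.4 CPM in cKO iNK, against 5.67, 7.55 and 5.12 CPM in cWT iNK, where the granule genes were at the floor, and it fell in mNK1 by -2.01 ± 0.49 in cKO and -1.504 ± 0.52 in cWT (log2, SE, edgeR adjusted p = 0.00435 and 0.0465). The iNK libraries of the genotypes did not overlap, but the difference did not pass the test (1.30 ± 0.47, edgeR adjusted p = 0.442). The proportion of Ngp to S100a8 separated the experiments. It was 2198 per 100 in cKO mNK1, against 1004 in cWT mNK1, and 1915 in cKO mNK2, against 844 in cWT mNK2. The cKO values rest on 60 and 26 S100a8 counts. The library ranges overlapped in mNK2 (1508 to 2640 in cKO, 628 to 3350 in cWT) but not in mNK1 (1337 to 4660 and 991 to 1267). The proportion was 95.6 in WT mNK1, 74.5 and 84.3 in WT mNK2 without and with KLRG1, and 116 in chimera KO, against 95.9 in chimera WT. The Ngp promoter is shown because of that spread, with the letters TTGCNNAA or their other strand TTNNGCAA, a core of sites for the C/EBP family of myeloid factors, in capitals.
Ngp, chr9:110419558-110419857, plus strand: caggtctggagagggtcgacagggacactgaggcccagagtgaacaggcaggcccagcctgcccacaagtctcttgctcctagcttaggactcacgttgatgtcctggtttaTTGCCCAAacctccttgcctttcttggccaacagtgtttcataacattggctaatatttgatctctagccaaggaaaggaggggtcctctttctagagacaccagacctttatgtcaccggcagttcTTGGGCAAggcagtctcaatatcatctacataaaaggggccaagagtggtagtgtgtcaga
The motif stands at 2 places in this window, in 8 of the 25 members with a promoter entry and in 10.8% of all 32851 promoters.

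The chimeras showed the marker genes moving in opposite directions by list. In KO against WT libraries, edgeR called 17 of the 33 members tested, 5 higher and 12 lower, where 5% of all genes tested were called (2.64% higher, 2.36% lower). All 8 tested B cell genes and 4 of 6 tested T cell genes fell, and 2 of 8 neutrophil and 3 of 8 myeloid genes rose. Of the 37 members, 9 were higher and 17 lower in KO without overlap of the libraries, against 2.73% and 6.96% of all genes tested. DESeq2 called 27 members, and edgeR called 13 to 22 when 1 library was left out. A fit with a replicate block called more members than the main fit, as given in the last section. The list medians were -3.28 for B (8 tested), -2.42 for T (6), 3.33 for neutrophil, 1.76 for myeloid and -1.90 for MHC class II genes (log2), against -0.01 for all genes.

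Cd79a had 2.14, 1.21, 2.57 and 1.999 CPM in chimera KO libraries, against 41.1, 25.9, 23.1 and 12.5 CPM in chimera WT libraries, a log2 fold change of -3.63 ± 0.40 (SE, edgeR adjusted p = 0.000141). The groups lay far apart, and Pou2af1, a B cell coactivator, fell by -4.26 ± 0.50 (adjusted p = 6.68e-06). Cd22 fell least of the called B cell genes. It had 9.91, 8.77, 13.6 and 6.30 CPM in KO, against 24.6, 18.2, 24.9 and 16.2 CPM in WT, a log2 fold change of -1.03 ± 0.23 (adjusted p = 0.00972). Its 95% interval, -1.59 to -0.46, does not overlap that of Cd79a, -4.62 to -2.65, and the difference between the genes was not tested. The proportion was 487 Cd22 counts per 100 Cd79a counts in KO (315 to 723 over the libraries), against 83.5 in WT (59.9 to 129). Cd79b was also more frequent against Cd79a, at 412 in KO, against 154 in WT.

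Cd3d had 6.02, 7.09, 8.53 and 8.10 CPM in chimera KO libraries, against 43.2, 37.1, 75.2 and 51.9 CPM in WT libraries, and fell by -2.70 ± 0.19 (log2, SE, edgeR adjusted p = 1.53e-08). Cd3e and Cd3g fell by about as much (-2.98 ± 0.32 and -2.71 ± 0.24, adjusted p = 1.61e-06 and 1.26e-06), and the library ranges of their ratios overlapped. Cd5 fell by -2.14 ± 0.37 (adjusted p = 0.000591). Cd6 (-2.11 ± 0.60, adjusted p = 0.0711) and Cd4 (-0.76 ± 0.74, adjusted p = 0.718) did not pass. Of the further T cell list 3 of 9 tested fell and none rose. Lck did not pass (-0.09 ± 0.09, adjusted p = 0.718), and Zap70 fell by -0.31 ± 0.07 (adjusted p = 0.00413).

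Mmp9 had 15.8, 6.44, 8.88 and 11.996 CPM in chimera KO libraries, against 0.0911, 2.36, 1.01 and 1.31 CPM in WT libraries, and rose by 3.31 ± 0.47 (log2, SE, edgeR adjusted p = 0.000298). Mmp8, the neutrophil collagenase, rose by 5.57 ± 0.85 (adjusted p = 0.00100), on 6 counts in the WT group. S100a8 had 107, 26.6, 37.6 and 83.5 CPM in KO, against 10.9, 1.18, 3.64 and 16.5 CPM in WT. The libraries did not overlap, yet the spread was wide and the gene did not pass (3.05 ± 0.78, adjusted p = 0.107), as S100a9, Ngp, Ltf, Lcn2 and Camp did not (log2 fold changes from 3.32 to 3.73, adjusted p from 0.0601 to 0.157). Of the further granulocyte list 4 of 5 tested rose, among them Cxcr2, a chemokine receptor of neutrophils, by 3.27 ± 0.40 (adjusted p = 3.48e-05).

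Lyz2 had 108, 39.1, 160 and 67.9 CPM in chimera KO libraries, against 15.6, 11.2, 19.7 and 10.2 CPM in WT libraries, and rose by 2.80 ± 0.52 (log2, SE, edgeR adjusted p = 0.0335). C5ar1 rose by 3.45 ± 0.39 (adjusted p = 6.20e-06) and C1qc by 1.67 ± 0.45 (adjusted p = 0.0432), the last with overlapping libraries. Csf1r, C1qa, C1qb and Vcam1 had log2 fold changes of 1.84, 1.20, 1.69 and 1.87 and did not pass. Cd68, a lysosomal protein of macrophages, had 10.1 ± 2.02 CPM in KO and 10.3 ± 1.81 CPM in WT libraries (SD, n = 4), with a fold change of 0.09 and a 95% interval of -0.43 to 0.61 (log2). The class II genes H2-Aa, H2-Ab1 and Cd74 were lower in KO in 4 of 4 libraries against 4, at log2 fold changes of -1.96, -1.78 and -1.90, and did not pass (edgeR adjusted p = 0.0771, 0.0983 and 0.123). KO library 3 held the highest class II, B cell and Lyz2 levels of its group. None of the 6 NK genes examined was called in this comparison, Ncr1 averaging 1973 ± 102 CPM in KO and 1874 ± 108 CPM in WT libraries (SD, n = 4).

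**Figure D4:**
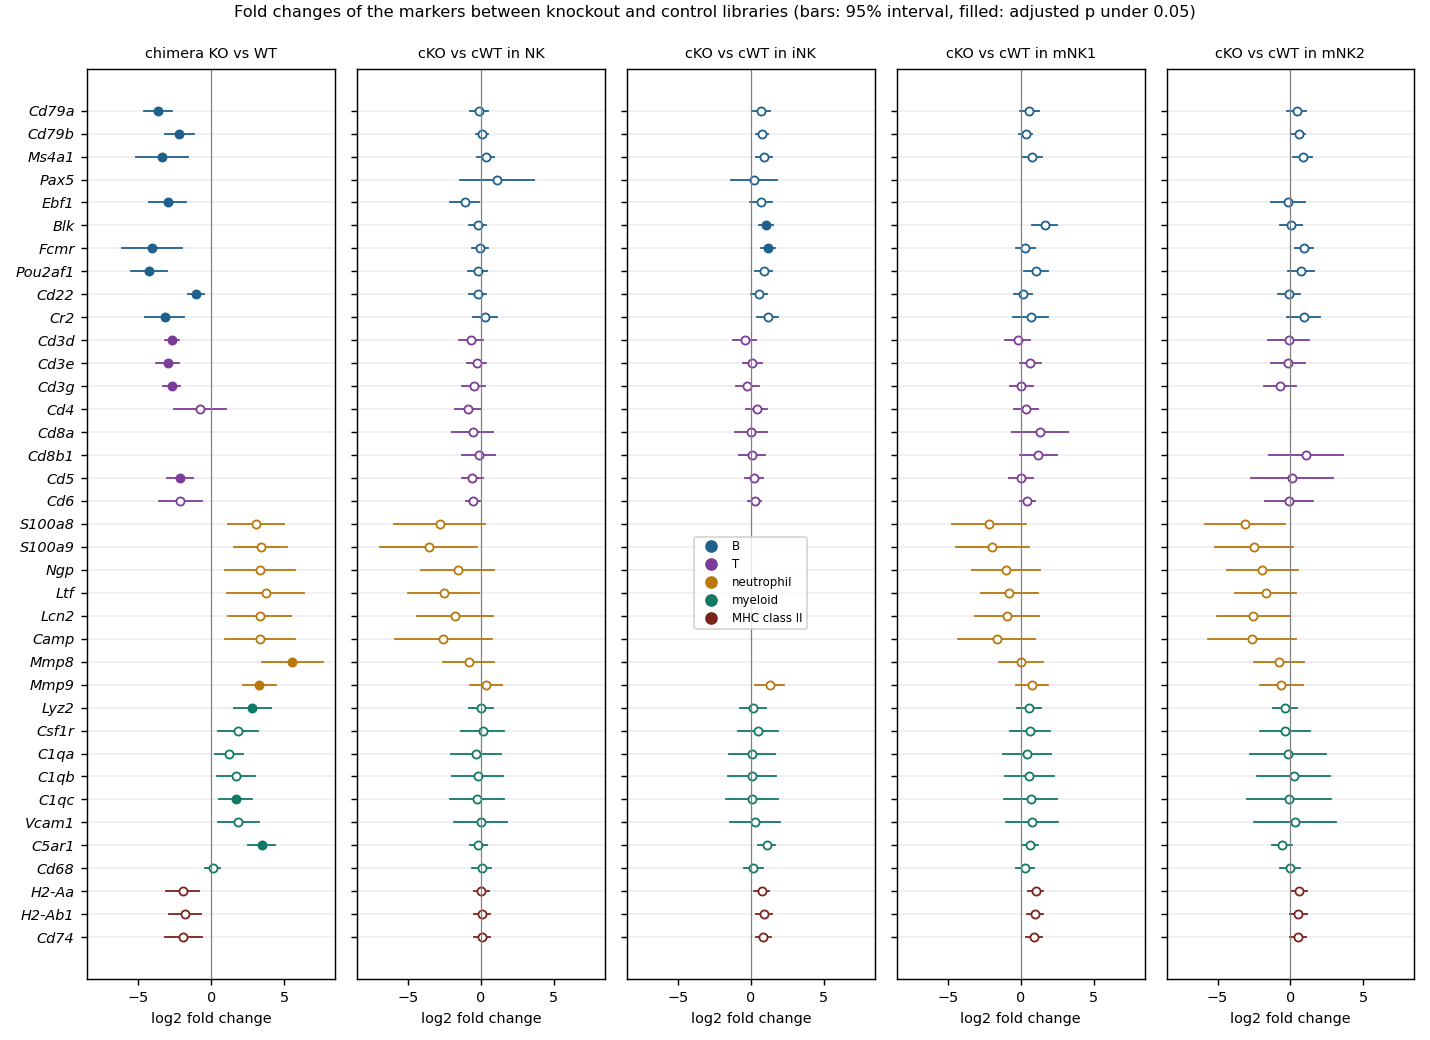
Log2 fold changes of the members, KO over WT or cKO over cWT, with bars for the 95% interval and filled points for an edgeR adjusted p under 0.05. Genes not tested, or with a group at or under the floor, are left blank. In the chimera panel the B and T genes lie left of 0 and the neutrophil and myeloid genes right of it, and in the conditional panels 2 of the drawn points are filled, Blk and Fcmr in iNK.

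The conditional comparison of genotypes called few members. In iNK edgeR called 2 of 37, both B cell genes and both higher in the libraries labelled cKO, where 0.294% of all genes tested were called (0.212% higher, 0.0816% lower). Fcmr had 252, 155 and 133 CPM in cKO iNK, against 86.1, 83.2 and 62.6 CPM in cWT iNK (1.17 ± 0.23, log2, SE, edgeR adjusted p = 0.0298). Blk, a kinase of B cell receptor signalling, had 35.4, 27.1 and 24.8 CPM in cKO iNK, against 14.1, 14.6 and 11.9 CPM in cWT iNK (1.06 ± 0.23, adjusted p = 0.04997). Neither call held in a fit of these 2 groups alone, and between 0 and 2 members were called when 1 library was left out, 0 of them without any of the 3 cWT libraries or without cKO library 1 or 2. In all, 14 of 37 members were higher in cKO iNK without overlap, where 7.37% of all genes were, and none was lower, where 3.03% were. Those 14 were 8 B cell genes, the 3 class II genes, Cd3e, Mmp9 and C5ar1. The B cell sum was 1581, 1239 and 915 CPM in cKO iNK, against 797, 708 and 540 CPM in cWT iNK. The library numbered 1 had the highest B cell sum in 8 of 8 conditional groups and the highest class II and myeloid sums in 7 of 8. What the numbers stand for is not given.

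In mNK1 the call of 1 member (Ebf1, a B cell transcription factor) rests on 1 count in the 3 cWT libraries, so no fold is given. Of all genes tested 0.571% were called (0.383% higher, 0.188% lower). Without overlap, 10 members were higher in cKO mNK1, where 6.81% of all genes were, and none was lower, where 5.01% were. They were 6 B cell genes, the 3 class II genes and Cd3e. H2-Aa had 107, 83.4 and 67.7 CPM in cKO mNK1, against 49.4, 38.1 and 35.4 CPM in cWT mNK1 (1.03 ± 0.25, log2, SE, edgeR adjusted p = 0.0879). The class II sum was 2.02-fold, and the B cell sum 1.44-fold, that of cWT.

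In mNK2 edgeR called 0 of 37 members, where 0.261% of all genes tested were called, with 6 at an unadjusted p under 0.05 (4 higher, 2 lower) and 0 by DESeq2. Without overlap, 6 were higher in cKO mNK2, where 3.51% of all genes were, and 5 lower, where 4.73% were. Those higher were Ms4a1, Fcmr, Cr2 (the B cell complement receptor) and the 3 class II genes, and those lower were Ngp, Ltf, Lcn2, Mmp8 and C5ar1. The neutrophil sum was 14.7, 23.5 and 23.9 CPM in cKO mNK2, against 162, 46.9 and 32.8 CPM in cWT mNK2. In the NK fraction edgeR called 0 of 37, where 0.571% of all genes were called, with 5 at an unadjusted p under 0.05, all lower, and 0 by DESeq2. There 6 members were lower in cKO without overlap (4.89% of all genes) and none higher (5.1%), and they were Ebf1, Cd4, Cd5, Cd6, S100a8 and S100a9. The B cell sum was 115 ± 10.1 CPM in cKO NK and 118 ± 7.48 CPM in cWT NK (SD, n = 3). The difference between the cKO effects in iNK and mNK2 was called for 0 of 37 members by edgeR, where 0.0489% of all genes were, with 3 at an unadjusted p under 0.05, and for 1 by DESeq2.

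The genotype differences were set beside each other across the designs. Over the 4 fractions, 41 member values did not overlap between cKO and cWT libraries. In the chimeras the same gene lay in the opposite direction without overlap for 33 of these, in the same direction without overlap for 5 (Ebf1, Cd5 and Cd6, lower in cKO NK, and Mmp9 and C5ar1, higher in cKO iNK), and with overlap for 3. The chimera libraries are of unfractionated NK cells. In the NK fraction alone, 2 of 6 such values lay in the opposite direction, 3 in the same, and 1 overlapped. No such count was made over all genes, and the 41 values repeat some genes over the fractions. Bach2 itself was not lower in the libraries labelled cKO. Cd79a stood at 1.98 ± 0.566 CPM in chimera KO and 25.6 ± 11.8 CPM in chimera WT libraries (SD, n = 4), and at 406 ± 113 CPM in cKO iNK and 237 ± 66.7 CPM in cWT iNK libraries (SD, n = 3). Its iNK libraries overlapped between the genotypes, so Cd79a in iNK is not among the 41. Ngp stood at 74.2 ± 55.6 CPM in chimera KO and 7.75 ± 7.50 CPM in chimera WT libraries, and at 11.8 ± 2.44 CPM in cKO mNK2 and 43.1 ± 34.8 CPM in cWT mNK2 libraries. No test was made across the experiments.

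Lists of further cell types were counted beside the members. Of 5 mast cell and basophil genes, 4 rose in cWT mNK1 against cWT iNK and 4 in cKO. The remaining gene, Kit, the stem cell factor receptor, fell in cKO at that step (-1.60 ± 0.22, log2, SE, edgeR adjusted p = 5.50e-06). All 5 fell at the next step in both genotypes. Cpa3, a mast cell protease, averaged 201 ± 96.3 CPM in cKO mNK1 and 140 ± 21.4 CPM in cWT mNK1 (SD, n = 3). In the chimeras 2 of the 5 rose in KO and 1 fell. Cpa3 rose by 2.10 ± 0.30 and Kit fell by -1.28 ± 0.20 (log2, SE, edgeR adjusted p = 0.000144 and 0.000220). Kit was also the gene of this list called in libraries labelled cKO, lower in NK, mNK1 and mNK2 by -1.14 ± 0.22, -1.19 ± 0.22 and -1.72 ± 0.25 (adjusted p = 0.0126, 0.00806 and 0.000550), and it is named here after its values were seen. Of 9 further B cell genes, 9 fell in mNK1 against iNK in each conditional genotype, and 7 of 8 tested fell in chimera KO. Of 11 further macrophage and dendritic cell genes, 1 rose and 2 fell in cWT mNK1 against iNK (10 tested), and 1 of 5 tested rose in chimera KO. None of the plasma cell genes tested (3 and 1) was called in these 2 comparisons, and of the erythroid and platelet genes 1 rose and 1 fell of 6 tested in cWT mNK1, while 1 rose of 2 tested in chimera KO.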

How the data were processed

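Total RNA of sorted mouse splenic NK cells was read by RNA-seq in 48 libraries, made with a Clontech SMARTer kit from RNA taken up in RNAlater and purified with RNeasy Plus columns, per the labels' protocols. The deposited values are raw counts per gene symbol, not normalized by the authors. FastQC, STAR 2.5.0 and the mm9 build are named in the submitters' processing notes. The counting program, annotation and strand setting are not given in the sources used here, so overlapping genes and the related genes C1qa, C1qb and C1qc cannot be checked for shared reads.

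The 3 experiments (conditional, WT subsets, chimera) were fitted apart with edgeR 4.0.16 in R 4.3.3: filterByExpr (minimum count 10, minimum total 15), TMM factors, the robust quasi-likelihood F test over all groups of an experiment, and Benjamini-Hochberg adjustment over all 12258, 11051 and 10614 genes tested. The threshold for a call was an adjusted p of 0.05. Of the 37 members, 37, 35 and 33 were tested. CPM used the library total, and folds are not given where a group was at or under 3 counts. The procedure was tested on simulated data. Same-numbered libraries did not deviate together by the rule used (every pair's correlation over 0.1), so no block entered the main fit. The chimeras came near the rule, with correlations of 0.0933 to 0.136 and 8 of 8 libraries nearest their own number. No 2 of the 60 replicate pairs were identical. Alternatives were RLE factors, no filter, a replicate block, DESeq2 1.42.0, only the groups compared, and leaving out each library, and for list levels a total without Rn45s or TMM-scaled totals.

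The members, lists and tests were chosen with earlier results of these data known. All members could be named. Non-members could be named if they were Bach2, NK genes, the 5 nearest profiles to Cd79a, Cd3e and Lyz2 (root mean square difference of centred log2 group means with 0.5 CPM added, over 8 groups, mean of at least 5 CPM) or the 3 highest genes of each further list (B, T, granulocyte, macrophage and dendritic, plasma, erythroid and platelet, mast cell and basophil). A gene that this rule allowed is not reported here. Promoters are from RefSeq (GRCm38.p6), with an entry for 25 of the 37 members.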

Additional observations from a re-analysis of the deposited data

Results flagged for a closer look

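In groups of 4 libraries, 17 of 195 values examined had 1 library far from the other 3 by Dixon's test. Chance alone gives about 1 in 20 for independent, normally distributed values. That rate need not hold here, since several of the values were 0 in the other 3 libraries and sums were examined beside their members. In WT iNK library 4, Fcmr was at 25.7 CPM and C5ar1 at 2.11 CPM. WT mNK1 library 2 was low in Cd3g (17.9 CPM), and WT mNK1 library 4 was high in Vcam1 (20.1 CPM) and C5ar1 (5.36 CPM). C5ar1 stood at 2.20 CPM in KLRG1-negative mNK2 library 4 and at 0 in the other 3. KLRG1-positive mNK2 library 3 had a neutrophil sum of 27.05 CPM, with Ngp at 5.28, Ltf at 7.79 and Lcn2 at 3.05 CPM, and library 4 had Csf1r at 8.02 CPM. Among chimera KO libraries, library 3 was high in Cd79b (15.1 CPM), H2-Aa (46.7 CPM) and H2-Ab1 (59.6 CPM), and library 4 in Cd4 (2.40 CPM). Among chimera WT libraries, Ltf was at 12.3 CPM in library 1 and Csf1r at 9.82 CPM in library 3.

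For 33 values every library labelled cKO lay to one side of the libraries labelled cWT, and every chimera KO library to the other side of the chimera WT libraries. The difference between the designs was not tested in any of them. They are 33 of the 41 values without overlap between cKO and cWT. Of the rest, 5 lay in the same direction in the chimeras (Ebf1, Cd5 and Cd6 in NK, Mmp9 and C5ar1 in iNK) and 3 overlapped there. In the NK fraction alone, 2 of 6 such values lay in the opposite direction, 3 in the same, and 1 overlapped. The same count over all genes was not made, and some genes recur over the fractions. Bach2 was not lower in the libraries labelled cKO, so these directions rest on the labels. Higher in cKO and lower in chimera KO were, in iNK (mean CPM in cKO), Cd79b 298, Ms4a1 177, Ebf1 10.5, Fcmr 180.1, Pou2af1 42.5, Cd22 75.1, Cr2 24.1, Cd3e 535, H2-Aa 503, H2-Ab1 694 and Cd74 1356. In mNK1 they were Cd79a 16.1, Cd79b 17.99, Ms4a1 7.22, Ebf1 0.461, Pou2af1 2.01, Cd3e 14.02, H2-Aa 85.9, H2-Ab1 114 and Cd74 158. In mNK2 they were Ms4a1 7.68, Fcmr 6.83, Cr2 1.20, H2-Aa 36.0, H2-Ab1 46.4 and Cd74 74.3. Lower in cKO and higher in chimera KO were S100a8 (0.268) and S100a9 (0.309) in NK, and Ngp (11.8), Ltf (3.46), Lcn2 (1.14), Mmp8 (0.618) and C5ar1 (3.63) in mNK2.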

How the results depend on the processing

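No result reversed under any alternative. With the replicate block, the number of members called was 28 in the chimeras, 6 in iNK, 3 in mNK1, 1 in mNK2, 1 for the difference between iNK and mNK2 and 3 in KLRG1-positive against KLRG1-negative mNK2, against 17, 2, 1, 0, 0 and 0 without it. The numbers are not known to pair the libraries, although every library of the chimeras correlated best with its own number. The same held in WT KLRG1-negative mNK2 against mNK1 and in KLRG1-positive against KLRG1-negative mNK2. DESeq2 called 27 in the chimeras, 6 in iNK, 4 in mNK1 and 1 for the difference. A fit of the compared groups alone called 0 in iNK and 0 in mNK1, and RLE factors and no filter each called 1 in iNK. Leaving out 1 library gave 0 to 2 calls in iNK, 0 to 1 in mNK1, 9 to 17 in cWT mNK2 against mNK1, and 0 to 1 in KLRG1-positive against KLRG1-negative mNK2. The cause was not tested in any of these. RLE factors kept 470 of 471 results on their side of the threshold, and leaving out 1 library 3156 of 3324. Genes with a group at or under 3 counts allow no fold at this depth.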
